A study of Mus musculus with 12 samples.

Results

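The receptors described here are those of the CD28 family and other inhibitory checkpoint receptors of T cells, measured by 10 probe sets for 7 genes among the 45101 probe sets of the array. The members were given as a list of probe sets with their genes: Cd28 (2 probe sets), Icos (3), Ctla4, Pdcd1, Btla, Lag3 and Havcr2 (1 each). Of the 10, 9 probe sets for 6 genes were tested, having reached a level of 5 on the log2 scale in 3 or more of the 12 arrays. The Havcr2 probe set did not, and is described by its values alone.

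RNA of sorted CD4+ CD25hi mouse spleen T cells was hybridised to Affymetrix arrays, 3 arrays in each of 4 groups. Transgenic mice, labelled C57BL/6-2Rbeta-WT/thymus transgenic, had been bred to mice lacking the IL-2 receptor beta chain, and the submitters describe their T cells as defective in the IL-2 receptor. The label places the wild-type receptor chain of the transgene in the thymus, and the sources used here name no promoter. Normal C57BL/6 mice were the comparison strain. Regulatory T cells (Treg cells) were sorted fresh from spleen as CD4+ CD25hi cells, from pools of 4, 8 and 3 transgenic mice and of 8, 8 and 15 C57BL/6 mice. Transgenic pools were 33, 13 and 7 to 16 weeks old and C57BL/6 pools 12, 12 and 10 weeks. Effector T cells were sorted as CD4+ CD25hi cells after 48 hours of spleen cell culture with anti-CD3, which activates T cells through their antigen receptor. Each effector array held 1 mouse, aged 15, 14 and 9 weeks in the transgenic group and 10, 14 and 14 weeks in the C57BL/6 group. For transgenic effector array 3 the labels conflict: the purification text speaks of fresh spleen, the title of activated effector cells. Values without this array are given for the calls between strains in each population and for several other differences, not for all.

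T cells need a second signal beside that of their antigen receptor, and the receptors of the CD28 family carry it or block it. CD28 and ICOS promote activation after binding CD80 or CD86 and ICOS ligand, and CTLA-4 competes with CD28 for CD80 and CD86. PD-1 (encoded by Pdcd1) and BTLA dampen signalling through phosphatases, while LAG-3 binds MHC class II and TIM-3 (encoded by Havcr2) belongs to another family. Treg cells are known for high CTLA-4, and activation induces ICOS, CTLA-4, PD-1 and LAG-3 on conventional T cells. In the RefSeq annotation (GRCm38.p6) Cd28, Ctla4 and Icos are neighbours on chromosome 1, with 0 other protein-coding genes between Cd28 and Ctla4 and 0 between Ctla4 and Icos. Pdcd1 lies elsewhere on chromosome 1, Lag3 on chromosome 6, Havcr2 on chromosome 11 and Btla on chromosome 16.

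Values are GCRMA values on the log2 scale, so that a difference of 1 is a doubling. Strain differences are transgenic minus C57BL/6 and population differences are Treg minus effector. A change was called at a limma adjusted p (Benjamini-Hochberg over all 18271 tested probe sets) under 0.05. All levels are of bulk RNA, in which fewer cells with a transcript and less of it per cell cannot be told apart. Levels of different probe sets were not set against each other.

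**Figure D1:**
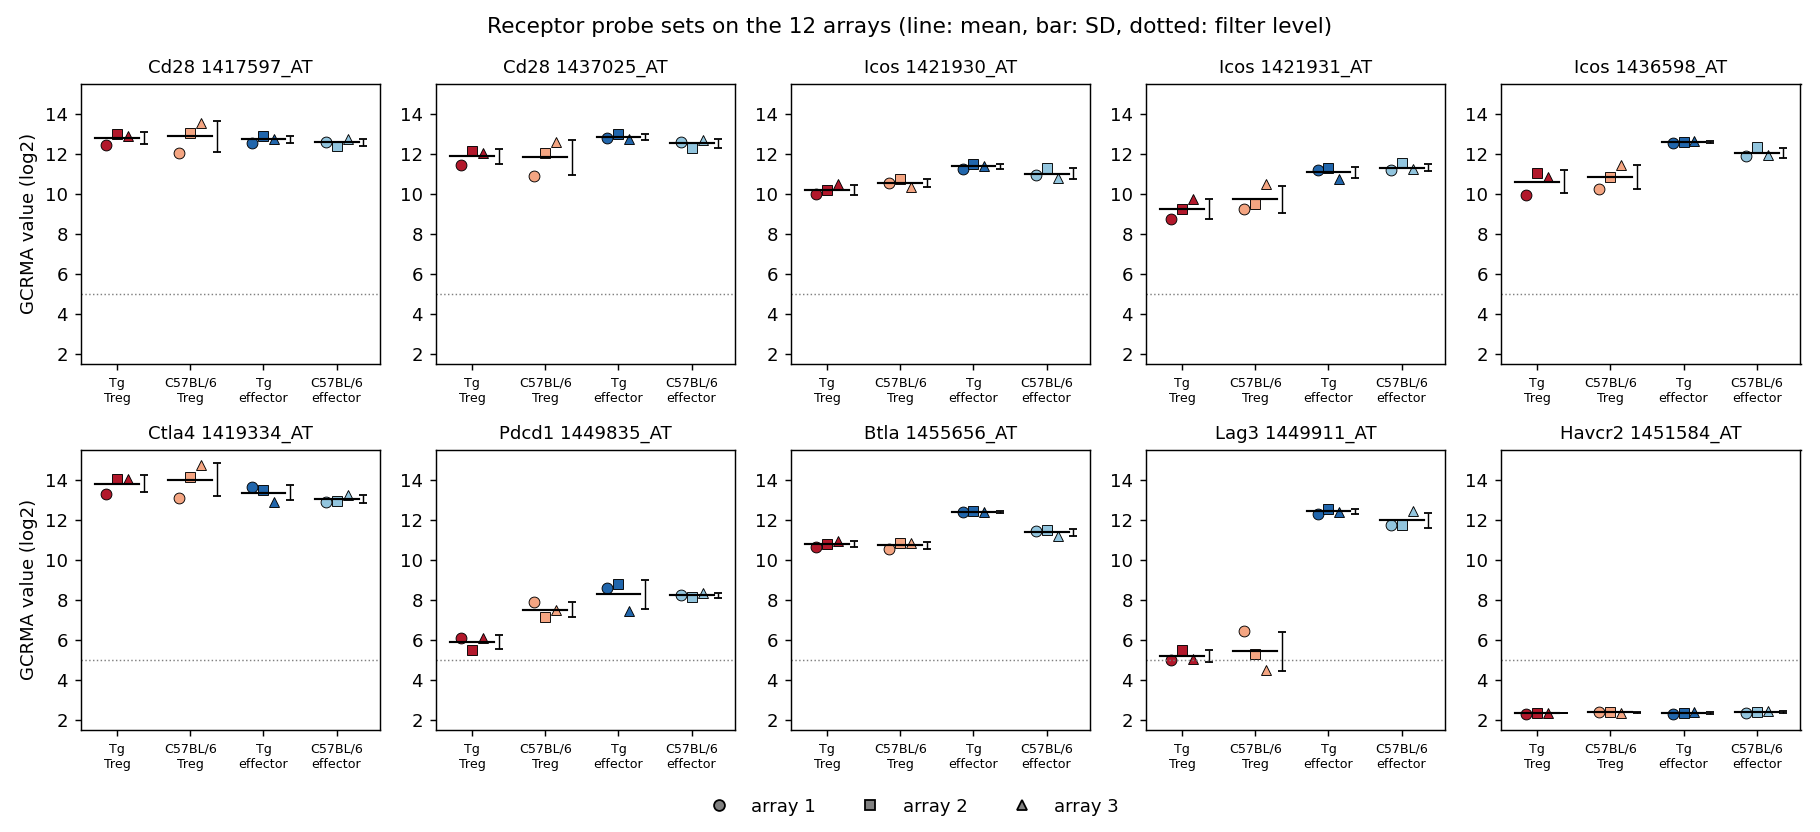
GCRMA values (log2, vertical axis) of the 10 receptor probe sets on the 12 arrays, with the groups along the horizontal axis from transgenic (Tg) Treg to C57BL/6 effector cells. Symbols mark arrays 1 to 3, horizontal lines group means, bars SD (n = 3) and the dotted line the filter level of 5. Lag3 is near the filter level in Treg cells and near 12 in effector cells, Pdcd1 is lowest in transgenic Treg cells, and Havcr2 is near 2.4 on all 12 arrays.

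The first question was which receptor transcripts differ between the strains, the T cells of transgenic mice being described as defective in the IL-2 receptor. Mouse ages and pool sizes also differed between the strains in Treg cells, and their part in strain differences was not tested. Pdcd1 was lower in transgenic than in C57BL/6 Treg cells, by 3.08-fold, in the main fit, which has no pairing of arrays. That call held in 8 of 23 alternative settings and was lost with the array number as a block (limma adjusted p = 0.0735). Btla was higher in transgenic than in C57BL/6 effector cells, by 2.03-fold. Each population therefore had 1 called probe set among the 9 tested: 1 lower in Treg cells, where 0.805% of all tested probe sets were called lower and 1.19% in either direction, and 1 higher in effector cells, where 1.92% were called higher and 2.99% in either direction. The other 8 tested probe sets in each population did not pass, with log2 differences of -0.49 to 0.07 in Treg cells and of -0.23 to 0.53 in effector cells.

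**Figure D2:**
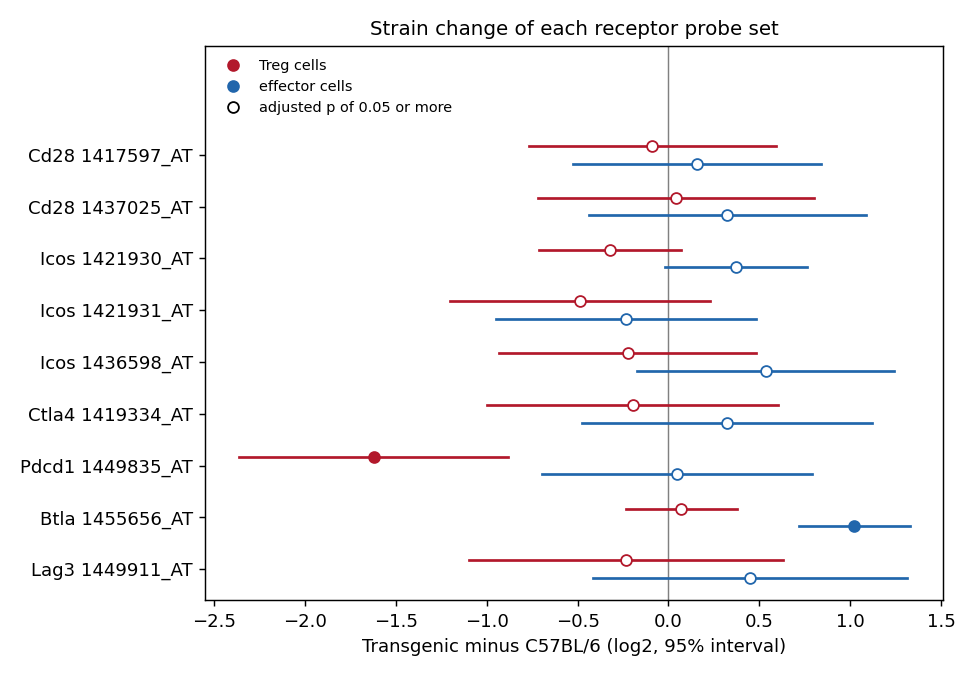
Strain difference (transgenic minus C57BL/6, log2, horizontal axis) of the 9 tested receptor probe sets, in Treg cells (red, upper) and effector cells (blue, lower), with 95% intervals from the limma model. Filled points passed an adjusted p of 0.05: Pdcd1 in Treg cells at -1.62 and Btla in effector cells at 1.02. The other intervals include 0.

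Pdcd1 encodes PD-1, the receptor for PD-L1 and PD-L2. Its probe set 1449835_AT read 6.08, 5.50 and 6.11 on the transgenic Treg arrays, against 7.89, 7.14 and 7.52 on the C57BL/6 Treg arrays. All 3 transgenic Treg arrays lay below all 3 C57BL/6 Treg arrays, and no other tested member separated the strains in Treg cells. Groups without overlap were found in 14.8% of all tested probe sets in that comparison. The means were 5.89 ± 0.34 in transgenic and 7.52 ± 0.37 in C57BL/6 Treg cells (SD, n = 3 each), a log2 difference of -1.62 ± 0.34 (standard error, limma adjusted p = 0.0458). Only 0.810% of the tested probe sets had a larger difference of either sign. The transgenic values of 5.50 to 6.11 lie near the filter level of 5. The size may depend there on the background correction, which no alternative varied. Same-numbered Treg arrays deviated together for numbers 1 and 3 (correlations of 0.58 and 0.51 across probe sets) and barely for number 2 (0.10). Within numbers 1, 2 and 3 the Pdcd1 difference was -1.81, -1.65 and -1.41. With the replicate number as a block the same difference had an adjusted p of 0.0735, so the call was lost.

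The Pdcd1 call in Treg cells was close to the threshold. Over 23 alternatives the log2 difference ran from -1.97 to -1.35 and was negative in all 23, while the adjusted p ran from 0.00407 to 0.158 and stayed under 0.05 in 8. Many of these settings, such as leaving out an effector array, cannot move the difference, only its adjusted p. Leaving out any of the 6 Treg arrays ended the call (adjusted p of 0.0750 to 0.158), as did leaving out any C57BL/6 effector array or transgenic effector array 1 (0.0676 to 0.0827), which enter through the shared variance. Without transgenic effector array 3 the adjusted p was 0.00598. The codes that the sample provider gave put Treg arrays 1 and 2 of both strains in 1 set and each Treg array 3 in a set of its own. With these sets as a block, so that arrays 1 and 2 alone carried the comparison, the difference was -1.73 (adjusted p = 0.156).

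In effector cells Pdcd1 read 8.59, 8.80 and 7.43 on the transgenic arrays, against 8.23, 8.12 and 8.34 on the C57BL/6 arrays. The groups overlapped, with the transgenic values on both sides of the C57BL/6 values, and the lowest was that of array 3, the array with conflicting labels. The log2 difference was 0.05, with a 95% interval of -0.70 to 0.79 (limma adjusted p = 1.00), and 0.47 without array 3 (adjusted p = 0.467). The Treg difference minus the effector difference was -1.67, with an interval of -2.72 to -0.62 (adjusted p = 0.118), which did not pass. It passed in 3 of 22 alternatives: -2.09 without transgenic effector array 3 (adjusted p = 0.0118), -2.02 after quantile normalization (adjusted p = 0.0489) and -1.77 with array weights (adjusted p = 0.00390).

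Btla encodes an inhibitory receptor that binds HVEM, a member of the TNF receptor family. Its probe set 1455656_AT read 12.37, 12.44 and 12.37 on the transgenic effector arrays, against 11.46, 11.49 and 11.16 on the C57BL/6 effector arrays. The transgenic arrays were all above the C57BL/6 arrays. The means were 12.39 ± 0.04 in transgenic and 11.37 ± 0.18 in C57BL/6 effector cells (SD, n = 3 each), and the log2 difference was 1.02 ± 0.14 (standard error, limma adjusted p = 0.00227). Btla was called in all 22 alternatives, with differences of 0.92 to 1.08 and adjusted p of 9.84e-05 to 0.0197. Many of these settings, such as leaving out a Treg array, cannot move the difference, only its adjusted p. The difference was 1.03 without transgenic effector array 3 (adjusted p = 0.00622). In the main fit 4.32% of the tested probe sets had a larger strain difference of either sign in effector cells.

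In Treg cells Btla read 10.65, 10.77 and 10.96 on the transgenic arrays, against 10.52, 10.82 and 10.83 on the C57BL/6 arrays. The strains overlapped, and the log2 difference was 0.07 with a 95% interval of -0.23 to 0.38 (limma adjusted p = 0.961). The Treg difference minus the effector difference was -0.95 ± 0.20 (standard error, adjusted p = 0.0303), and Btla was the 1 tested member of 9 called in this comparison. Over all tested probe sets 2.26% were called there, 1.52% with a lower strain difference in Treg than in effector cells. This call was lost when any of 8 single arrays was left out (all 3 C57BL/6 effector arrays, transgenic effector array 1 or 2, C57BL/6 Treg array 2, transgenic Treg array 1 or 2), with values of -1.01 to -0.85 and adjusted p of 0.0517 to 0.0966.

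Promoter windows were printed for Pdcd1 and Btla because they are the members called between strains, Btla in all alternatives run and Pdcd1 in 8 of 23, its call being lost with the replicate block (adjusted p = 0.0735). Each runs from 250 bases before to 50 bases after the annotated start, 5′ to 3′ on the gene's strand, from RefSeq on GRCm38.p6. Capitals mark matches to the NFAT core GGAAA on either strand, where a match on the opposite strand reads TTTCC. The Pdcd1 window is chr1:94052504-94052803 on the minus strand and the Btla window chr16:45224087-45224386 on the plus strand.
Pdcd1: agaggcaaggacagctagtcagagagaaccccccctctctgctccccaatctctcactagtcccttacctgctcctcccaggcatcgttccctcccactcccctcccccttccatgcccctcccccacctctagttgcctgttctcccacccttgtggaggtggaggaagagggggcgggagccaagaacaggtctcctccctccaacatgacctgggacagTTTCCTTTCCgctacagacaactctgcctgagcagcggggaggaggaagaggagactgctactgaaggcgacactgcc
Btla: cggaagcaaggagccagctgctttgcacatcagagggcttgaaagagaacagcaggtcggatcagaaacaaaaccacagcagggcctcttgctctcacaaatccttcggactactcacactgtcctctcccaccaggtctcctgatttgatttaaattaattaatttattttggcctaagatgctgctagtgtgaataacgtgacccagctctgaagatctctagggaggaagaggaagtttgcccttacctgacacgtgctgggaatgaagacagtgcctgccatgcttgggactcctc

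The Pdcd1 window held 2 adjoining matches to the NFAT core, at bases 223 to 227 and 228 to 232 of the window, and the Btla window held 0. Of all 32851 windows of this length, 61.3% held at least 1. The palindrome TTCNNNGAA, a motif of STAT factors such as STAT5 downstream of the IL-2 receptor, and the AP-1 motif TGANTCA were searched on both strands too, and neither was found in the Pdcd1 or Btla window. They occurred in 8.30% and 7.81% of all windows. None of the 3 motifs overlaps another in these windows. Windows matched 4 of the 7 genes, and in the other two, Ctla4 held 1 NFAT core and Havcr2 held 1 AP-1 motif, with no STAT palindrome in either. A match shows only that these letters are there.

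Cd28 encodes the main costimulatory receptor of T cells. Its probe set 1417597_AT read 12.44, 12.99 and 12.91 on transgenic Treg arrays, against 12.03, 13.02 and 13.55 on C57BL/6 Treg arrays. In effector cells it read 12.55, 12.89 and 12.72 in transgenic mice, against 12.58, 12.38 and 12.73 in C57BL/6 mice. The strains overlapped in both populations, with log2 differences of -0.09 (95% interval -0.77 to 0.59) in Treg cells and 0.16 (-0.52 to 0.84) in effector cells. The other Cd28 probe set, 1437025_AT, had differences of 0.04 (-0.72 to 0.80) and 0.32 (-0.44 to 1.08). Its transgenic effector arrays, at 12.81, 12.98 and 12.73, lay above the C57BL/6 effector arrays, at 12.57, 12.28 and 12.70, by a narrow gap, and the difference did not pass (limma adjusted p = 0.774). Without transgenic effector array 3 the effector differences were 0.16 for 1417597_AT and 0.38 for 1437025_AT, and neither passed.

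Icos encodes a costimulatory receptor induced on activated T cells, and its 3 probe sets did not give 1 picture of strain. In effector cells 1436598_AT read 12.52, 12.60 and 12.64 in transgenic mice, against 11.88, 12.35 and 11.93 in C57BL/6 mice. The transgenic arrays were all higher, but the log2 difference of 0.53 did not pass (95% interval -0.17 to 1.24, limma adjusted p = 0.490). Probe set 1421930_AT differed by 0.37 (-0.02 to 0.76) and 1421931_AT by -0.23 (-0.95 to 0.48), both with overlapping strains. Without transgenic effector array 3 the effector differences of the 3 Icos probe sets were 0.51 for 1436598_AT, 0.36 for 1421930_AT and -0.08 for 1421931_AT, and none passed. Of the 9 tested members, 3 separated the strains in effector cells (Btla, Icos 1436598_AT and Cd28 1437025_AT, all higher in transgenic cells), where 22.8% of all tested probe sets did so and 12.7% were higher. In Treg cells the Icos differences were -0.32, -0.49 and -0.22 for 1421930_AT, 1421931_AT and 1436598_AT, all below 0, with adjusted p of 0.692 to 0.935.

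Ctla4 encodes CTLA-4, which Treg cells use to strip CD80 and CD86 from antigen-presenting cells. Probe set 1419334_AT read 13.29, 14.03 and 14.05 on transgenic Treg arrays, against 13.10, 14.13 and 14.73 on C57BL/6 Treg arrays. In effector cells it read 13.63, 13.50 and 12.91 in transgenic mice, against 12.91, 12.92 and 13.24 in C57BL/6 mice. The strains overlapped in both, and the log2 differences were -0.20 ± 0.36 (standard error, limma adjusted p = 0.957) in Treg cells and 0.32 ± 0.36 (adjusted p = 0.792) in effector cells. Without transgenic effector array 3, the lowest of its group, the effector difference was 0.54 (adjusted p = 0.648).

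Lag3 encodes an inhibitory receptor related to CD4. Its probe set 1449911_AT read 5.02, 5.52 and 5.04 on transgenic Treg arrays, against 6.45, 5.32 and 4.52 on C57BL/6 Treg arrays. The C57BL/6 values lay on both sides of the transgenic values (log2 difference -0.23, 95% interval -1.10 to 0.63). In effector cells it read 12.31, 12.54 and 12.39 in transgenic mice, against 11.74, 11.75 and 12.41 in C57BL/6 mice, and the groups overlapped through C57BL/6 array 3. That difference was 0.45 (-0.42 to 1.31, limma adjusted p = 0.694), and 0.46 without transgenic effector array 3 (adjusted p = 0.785).

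Havcr2 encodes TIM-3, a receptor of terminally differentiated effector cells. Its probe set 1451584_AT read 2.33 to 2.36 on transgenic Treg arrays, 2.36 to 2.41 on C57BL/6 Treg arrays, 2.30 to 2.39 on transgenic effector arrays and 2.34 to 2.45 on C57BL/6 effector arrays. All 12 values lay far below the filter level, so this probe set gave no measure of a difference between groups.

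By the median SD over these receptors, the Treg arrays differed among themselves more than the effector arrays. Over the 9 tested members the median SD was 0.34 in transgenic and 0.67 in C57BL/6 Treg cells, against 0.21 and 0.30 over all tested probe sets. In effector cells it was 0.13 in transgenic and 0.19 in C57BL/6 mice, against 0.25 and 0.16 over all tested probe sets. Not every receptor followed the median. In transgenic mice the SD of Pdcd1 was 0.74 in effector and 0.34 in Treg cells. In C57BL/6 mice that of Icos 1421930_AT was 0.26 and 0.21, and that of Btla 0.18 in both. Array 1 held the lowest value of its group in 8 of 9 members in transgenic Treg cells and in 6 of 9 in C57BL/6 Treg cells, where it was lowest for 38.9% and 36.5% of all tested probe sets. In C57BL/6 Treg cells Pdcd1 and Lag3 went the other way and were highest on array 1.

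The control transcripts added to each sample differed between the C57BL/6 Treg arrays. Their 18 probe sets averaged 10.52, 10.50 and 10.79 on transgenic Treg arrays 1 to 3, against 12.65, 11.63 and 10.50 on C57BL/6 Treg arrays 1 to 3. Among the C57BL/6 arrays, Ctla4 and Cd28 were lowest and Lag3 highest where the added controls were highest. Transgenic array 1, with the lowest value of 8 of 9 members, read 10.52 for the controls, close to the 10.50 of array 2. The signal at the 3′ minus that at the 5′ end of Gapdh, a measure of RNA quality, was -0.20, -0.21 and -0.43 on transgenic and 0.27, -0.13 and -0.54 on C57BL/6 Treg arrays. On effector arrays 1 to 3 it was -0.004, -0.01 and 0.21 in transgenic and -0.03, 0.06 and -0.04 in C57BL/6 mice. It was thus highest on transgenic effector array 3, the array with conflicting labels. With the control reading as a covariate, an alternative added after the data were seen, the Treg strain difference was -0.90 for Ctla4 (limma adjusted p = 0.149), -0.75 for Cd28 1417597_AT (adjusted p = 0.0999), 0.61 for Lag3 (adjusted p = 0.273) and -1.44 for Pdcd1 (adjusted p = 0.0967). It was -0.70 for Cd28 1437025_AT, -0.05 for Btla, and -0.20, -1.01 and -0.74 for Icos 1421930_AT, 1421931_AT and 1436598_AT. Under this covariate the Treg strain differences of Lag3, Cd28 1437025_AT and Btla changed sign, and none of the 9 tested members passed. The control reading itself differed by strain and varied mostly among the C57BL/6 arrays. This adjustment therefore rests mostly on those arrays and cannot be told apart from part of the strain difference.

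**Figure D3:**
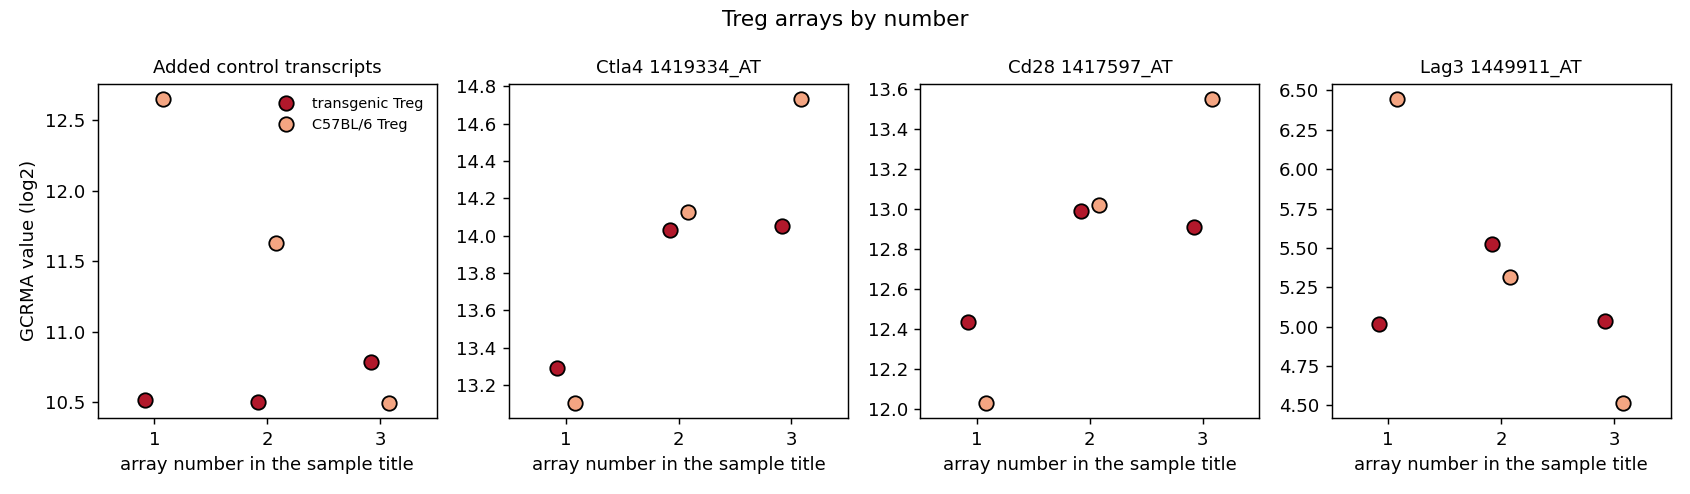
GCRMA values (log2, vertical axes, each panel with its own range) on the 6 Treg arrays by array number (horizontal axis), for the mean of 18 probe sets of added control transcripts and for Ctla4, Cd28 1417597_AT and Lag3. Dark points are transgenic and light points C57BL/6 arrays: the C57BL/6 controls read 12.65, 11.63 and 10.50, and Ctla4 13.10, 14.13 and 14.73 on the same arrays.

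The second question was how the receptors differ between fresh Treg cells and activated effector cells. Lag3 was far lower in Treg than in effector cells, with log2 differences of -7.22 in transgenic mice and -6.54 in C57BL/6 mice. Icos was lower in Treg cells in both strains, except that 1 of its 3 probe sets turned direction in C57BL/6 mice after quantile normalization. Pdcd1 was lower in Treg cells of transgenic mice, and Ctla4 was higher in Treg cells of C57BL/6 mice by 1.95-fold. In the other strain each had the same direction without a call (log2 differences of -0.71 for Pdcd1 and 0.44 for Ctla4). Neither population difference was called as differing between the strains (limma adjusted p = 0.118 for Pdcd1 and 0.730 for Ctla4). In transgenic mice 7 of the 9 tested members were lower in Treg cells and 0 higher, where 40.0% of all tested probe sets were called lower and 30.0% higher. In C57BL/6 mice 5 were lower and 1 higher, where 42.0% were called lower and 31.7% higher. After centring 6 were lower and 0 higher in transgenic mice, and 3 lower and 1 higher in C57BL/6 mice. After quantile normalization 6 were lower and 1 higher in transgenic mice, and 2 lower and 2 higher in C57BL/6 mice. Leaving out transgenic effector array 3 gave 7 calls in each strain. Groups did not overlap for 7 of the 9 members in transgenic mice and 6 in C57BL/6 mice, where 73.9% and 76.7% of all tested probe sets were so. Most tested probe sets therefore differed (70.0% in transgenic and 73.8% in C57BL/6 mice), and a call on a receptor is not unusual. Population goes with culture, activation, pooling of mice and provider code, which cannot be told apart from cell type.

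Treg and effector arrays also differ in the range of their values, so population differences were set out under 3 scalings. As deposited, the differences of all tested probe sets had a median of -0.21 in transgenic and -0.26 in C57BL/6 mice. Centring each array on its median moved it by 0.30 and 0.32, and quantile normalization over all 12 arrays by 0.28 and 0.27. The share of higher among called probe sets was 42.9% in transgenic and 43.0% in C57BL/6 mice as deposited, 53.3% and 52.7% after centring, and 52.8% and 51.2% after quantile normalization. Values below are as deposited, with another scaling beside those whose call, direction or size it changed most.

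**Figure D4:**
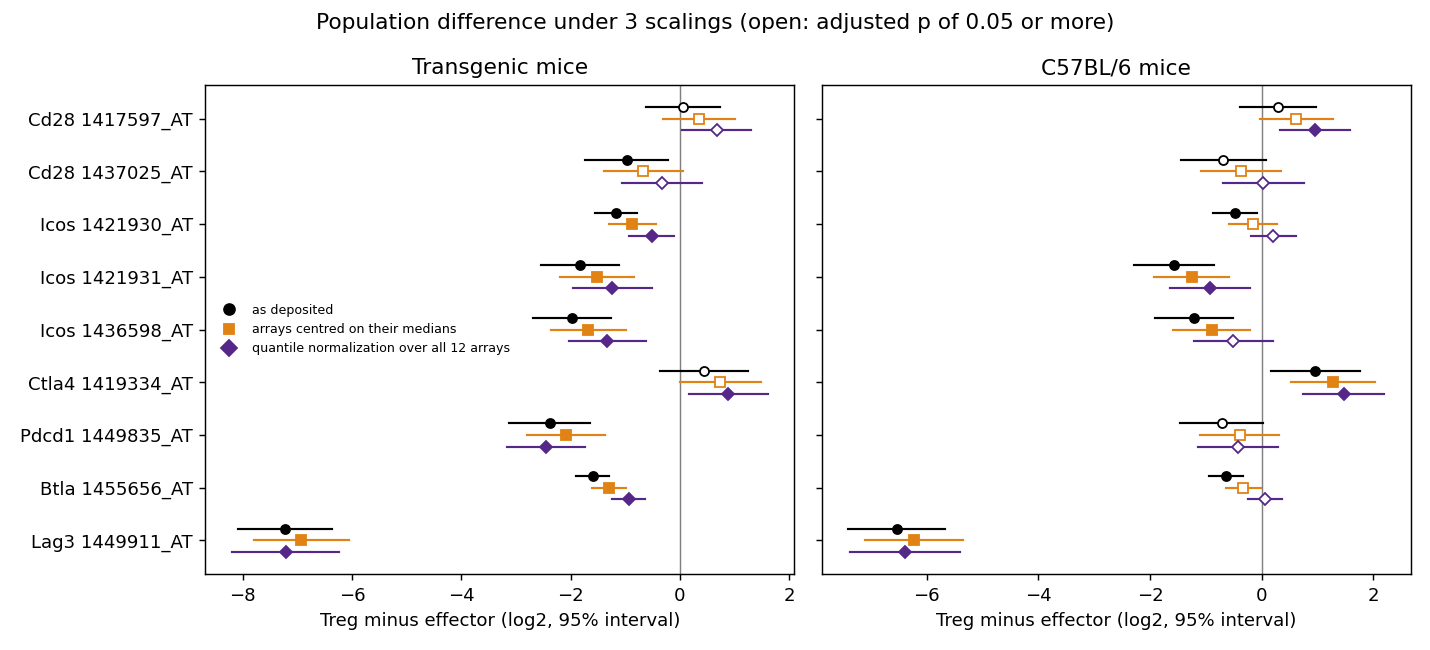
Population difference (Treg minus effector, log2, horizontal axis) of the 9 tested receptor probe sets in transgenic mice (left) and C57BL/6 mice (right), with 95% intervals, as deposited (black), after median centring (orange) and after quantile normalization (purple). Filled symbols passed an adjusted p of 0.05. Lag3 stays below -6 under all 3 scalings in both strains, and Btla in C57BL/6 mice runs from -0.65 as deposited to 0.06 after quantile normalization.

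The Lag3 difference was among the largest on the array: 0.0766% of tested probe sets differed more in transgenic mice and 0.241% in C57BL/6 mice. Its Treg mean was 5.19 ± 0.29 and its effector mean 12.41 ± 0.12 in transgenic mice (SD, n = 3 each, limma adjusted p = 3.23e-08). In C57BL/6 mice the Treg mean was 5.43 ± 0.97 and the effector mean 11.97 ± 0.39 (SD, n = 3 each, adjusted p = 6.43e-08). No Treg array came within 5 of any effector array. These differences are equal to 149-fold and 93.0-fold. The Treg values lie near the filter level, where such sizes may depend on the background correction, which no alternative varied. Relative to the median of all tested probe sets, the Lag3 difference in transgenic mice was -7.01 as deposited and -7.28 after quantile normalization, and in C57BL/6 mice it was -6.28 and -6.40.

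The Icos probe sets were called lower in Treg than in effector cells in both strains, by sizes that differed among them. In transgenic mice the differences were -1.17 for 1421930_AT, -1.82 for 1421931_AT and -1.97 for 1436598_AT (limma adjusted p of 0.000115 to 0.000388), and each stayed called in all 21 alternatives. After quantile normalization they were -0.52, -1.24 and -1.33, and without transgenic effector array 3 -1.16, -1.98 and -1.95. In C57BL/6 mice they were -0.48, -1.57 and -1.21 (adjusted p = 0.0294, 0.00103 and 0.00502). Probe set 1421931_AT stayed called in all 21 alternatives there and was -0.93 after quantile normalization. The smallest, that of 1421930_AT, was 0.21 after quantile normalization (adjusted p = 0.330), a turn of direction, and -0.16 after centring (adjusted p = 0.471), and its call was lost without C57BL/6 effector array 2 or C57BL/6 Treg array 1 or 3. The difference of 1436598_AT was -0.51 after quantile normalization (adjusted p = 0.179).

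Pdcd1 averaged 5.89 ± 0.34 in Treg and 8.28 ± 0.74 in effector cells of transgenic mice (SD, n = 3 each), a log2 difference of -2.38 (limma adjusted p = 6.62e-05) that stayed called in all 21 alternatives, with values of -2.80 (without transgenic effector array 3) to -2.08 (after centring). In C57BL/6 mice the means were 7.52 ± 0.37 in Treg and 8.23 ± 0.11 in effector cells, and the difference of -0.71 did not pass (95% interval -1.45 to 0.03, adjusted p = 0.0755). It was -0.40 after centring (adjusted p = 0.287) and -0.43 after quantile normalization (adjusted p = 0.261). As deposited, the 3 C57BL/6 Treg arrays lay below the 3 C57BL/6 effector arrays. The difference passed in 4 of 21 alternatives. Without transgenic effector array 3, which adds to the shared variance, the same -0.71 had an adjusted p of 0.0149, and without C57BL/6 Treg array 1 the difference was -0.90 (adjusted p = 0.0484). With only the C57BL/6 arrays the adjusted p was 0.0238, and with array weights it was 0.000260. The order of Pdcd1 levels was transgenic effector and C57BL/6 effector, which overlapped, then C57BL/6 Treg and last transgenic Treg. Transgenic Treg cells were separate from all 3 other groups, and C57BL/6 Treg cells overlapped transgenic effector cells only through array 3 of the transgenic group.

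Btla averaged 10.80 ± 0.16 in Treg and 12.39 ± 0.04 in effector cells of transgenic mice (SD, n = 3 each), a log2 difference of -1.60 (limma adjusted p = 1.23e-06) that was called in all 21 alternatives and was -0.93 after quantile normalization. In C57BL/6 mice it averaged 10.72 ± 0.18 in Treg and 11.37 ± 0.18 in effector cells, a difference of -0.65 as deposited (adjusted p = 0.00128), -0.33 after centring (adjusted p = 0.0578) and 0.06 after quantile normalization (adjusted p = 0.730). A lower level of Btla in Treg cells was thus held by every scaling in transgenic mice, and in C57BL/6 mice its call and direction depended on the scaling.

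Ctla4 was higher in Treg than in effector cells of C57BL/6 mice, at 13.99 ± 0.82 and 13.02 ± 0.19 (SD, n = 3 each), a log2 difference of 0.96 (limma adjusted p = 0.0315). The groups overlapped, since C57BL/6 Treg array 1 at 13.10 lay below C57BL/6 effector array 3 at 13.24. The difference was 1.28 after centring and 1.47 after quantile normalization (adjusted p = 0.00521 and 0.00185). It was 1.41 without C57BL/6 Treg array 1, and it was 0.59 and not called without C57BL/6 Treg array 3 (adjusted p = 0.128), with calls also lost without C57BL/6 Treg array 2 or C57BL/6 effector array 1 or 2. In transgenic mice Ctla4 averaged 13.79 ± 0.43 in Treg and 13.35 ± 0.39 in effector cells, and the difference of 0.44 did not pass as deposited (95% interval -0.35 to 1.24, adjusted p = 0.295) but was 0.89 after quantile normalization (adjusted p = 0.0325). It was 0.22 without transgenic effector array 3 (adjusted p = 0.630). The anti-CD3 culture makes the effector cells an activated comparison, in which Ctla4 is known to be induced. The part of such induction in these differences was not tested.

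The Cd28 probe sets disagreed on the population difference. Probe set 1417597_AT differed by 0.06 in transgenic mice (95% interval -0.62 to 0.74) and by 0.30 in C57BL/6 mice (-0.38 to 0.98), and neither passed. Probe set 1437025_AT averaged 11.87 ± 0.36 in Treg and 12.84 ± 0.13 in effector cells of transgenic mice (SD, n = 3 each), a log2 difference of -0.97 (limma adjusted p = 0.0260), and differed by -0.69 in C57BL/6 mice (adjusted p = 0.0928). The transgenic call was lost after centring (-0.67, adjusted p = 0.0911) and quantile normalization (-0.33, adjusted p = 0.407), and without transgenic effector array 1 or 2 or transgenic Treg array 1 (adjusted p of 0.0542 to 0.101). In C57BL/6 mice quantile normalization gave 0.96 for 1417597_AT (adjusted p = 0.0111) and 0.03 for 1437025_AT (adjusted p = 0.940), so the direction of Cd28 was not settled.

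The tested members could be ordered by how alike their patterns were, as the root-mean-square distance (log2) between 2 probe sets over the 12 arrays after each was centred on its own mean. Only members have gene names here, so likeness is given among them. Cd28 1417597_AT was nearest to Ctla4 (0.34), and Btla was nearest to Icos 1421930_AT (0.34) and Icos 1436598_AT (0.43). The Cd28 probe sets were farther from each other (0.51) than 1417597_AT was from Ctla4. Pdcd1 was nearest to Icos 1421931_AT (0.63) and Icos 1421930_AT (0.74). Lag3 was far from every other member, with 2.70 to its nearest, Icos 1421931_AT. The probe sets were not scaled to equal spread, so this distance includes the large size of the Lag3 population difference. It does not show that Lag3 ordered the groups differently.

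Among the 4 groups, Lag3, Btla and all 3 Icos probe sets had every array of both effector groups above every array of both Treg groups as deposited. After quantile normalization this order was lost for Btla and Icos 1421930_AT in C57BL/6 mice, whose means turned. Among these 5 probe sets Btla and Icos 1436598_AT separated the strains in effector cells, and within the Treg groups only Pdcd1 did so among the tested members. Pdcd1 and Cd28 1437025_AT also had both effector means above both Treg means, but with single arrays out of order. For Pdcd1, transgenic effector array 3 (7.43) lay below C57BL/6 Treg arrays 1 (7.89) and 3 (7.52). For Cd28 1437025_AT, C57BL/6 effector array 2 (12.28) lay below C57BL/6 Treg array 3 (12.57). Ctla4 and Cd28 1417597_AT had both Treg groups above both effector groups in their means, but each group overlapped the next.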

How the data were processed

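The deposited table holds 1 value per probe set and array on the log2 scale, made by the authors with GCRMA, a background correction, normalization and probe set summary, per the submitters' processing notes; no source names the version, or says whether both populations were normalized together. The labels' protocols describe 1 amplification of the RNA by in vitro transcription. The 12 arrays were grouped by their titles.

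Of 45101 probe sets, 64 controls were left out and 18271 reaching 5 (log2) in 3 or more arrays were tested in limma 3.58.1 (R 4.3.3), with 4 group means, 8 residual degrees of freedom before moderation and eBayes with trend. The fit was tested on simulated data first. With 3 arrays a group, the number of arrays limits the precision. All 10 members are named. The members were chosen with earlier results of these data known. The deposited table pairs no probe sets with genes, so names come from the list of members, and lists of ligands, signalling genes and cell type markers, the labelled cell types among them, were not tested. Likeness was therefore computed among members only. Alternatives changed the filter, scaling, variance model, array weights, arrays in the fit and blocks, and left out each array in turn. Changing the filter or variance model, or leaving out an array outside the groups compared, cannot move a difference, only its adjusted p. A covariate from the added controls was chosen after seeing the data.

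Deviations from group means of same-numbered transgenic and C57BL/6 Treg arrays correlated at 0.58, 0.10 and 0.51 across probe sets, each above a cut of 0.1. Number 2 passed it barely, and transgenic array 2 correlated as much with C57BL/6 array 3 (0.11). Deviations within a group sum to 0, so these correlations are not independent, and they do not show pairing for number 2. The main fit had no pairing term, and the numbers entered as a block in an alternative. Any pairing comes from the data, not the labels. For same-numbered effector arrays the correlations were 0.21, -0.34 and -0.34, and no pairing was taken. Promoters are from RefSeq (GRCm38.p6). Figures were drawn with matplotlib 3.10.9.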

Additional observations from a re-analysis of the deposited data

Results flagged for a closer look

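The strain difference of Btla 1455656_AT differed between the populations by a test of that difference: it was 0.07 in Treg cells and 1.02 in effector cells, a log2 difference of -0.95 (limma adjusted p = 0.0303). The adjusted p ran from 0.00168 to 0.0966 over 22 alternatives and was under 0.05 in 13 of them.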

How the results depend on the processing

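Of the calls on single receptors, that of Btla between strains in effector cells and those of Lag3, Pdcd1, Btla and Icos between populations in transgenic mice held in all alternatives run, and in C57BL/6 mice those of Lag3 and Icos 1421931_AT. Quantile normalization turned the C57BL/6 population difference to 0.21 for Icos 1421930_AT and 0.056 for Btla, and the cause was not tested. Called members fell to 0 in the Treg strain comparison with no filter, with only the compared arrays, with the replicate block, with provider codes as a block and with the covariate of added controls. In the difference between strain effects they were 0 with no filter, 2 with quantile normalization and 3 with array weights, and 3 C57BL/6 population members passed a difference of 1 with no test.

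Over all probe sets the Treg strain count of 218 was 135 with a filter at 7, 1232 with array weights, 74 with only the compared arrays, 565 with the covariate and 482 at a difference of 1 with no test. The effector count of 547 was 347 with no filter, 3033 with array weights, 223 with only the compared arrays and 836 at a difference of 1. The population counts of 12789 in transgenic and 13475 in C57BL/6 mice were 31397 and 31870 with no filter, which tests more probe sets. The count of 413 for the difference between strain effects was 2529 with array weights and 1694 at a difference of 1. Leaving out each array in turn gave 135 to 255, 266 to 628, 11769 to 13299, 12519 to 13909 and 214 to 433 in these 5 comparisons, with 0 to 1, 1 to 1, 6 to 7, 4 to 7 and 0 to 2 members called.

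With the replicate number as a block the 5 counts were 184, 522, 12772, 13380 and 371, and beside the Pdcd1 call in Treg cells no call on a member was lost or gained. Effector numbers are uncertain, since 2 arrays share a number in another label. The Treg values of Lag3 and the transgenic Treg values of Pdcd1 lie near the filter level, and all values of Havcr2 below it. Background correction may limit what can be measured at such levels, and no alternative varied it.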
